A study of Mus musculus with 12 samples.

Results

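The genes described here were 10 members of the ephrin and Eph families, taken from the table of 53700 genes measured in mouse hearts. They comprised the 3 ephrin-B ligand genes Efnb1, Efnb2 and Efnb3, the ephrin-A ligand genes Efna1 and Efna5, the EphB receptor genes Ephb1, Ephb3 and Ephb4, and the EphA receptor genes Epha4 and Epha7. The family was chosen by the Efnb3 read counts, which were lower in hearts lacking CYB5R3 in cardiomyocytes, so the differences of these 10 genes between the genotypes are descriptions, and no test outcome on them is used as support. The ac-CYB5R3-KO group held 6 male mice with floxed alleles (Cyb5r3 fl/fl) and the ac-WT group 6 male mice with unfloxed alleles (Cyb5r3 wt/wt). All 12 carried Myh6-CreERT2, a tamoxifen-activated Cre recombinase under a promoter active in cardiomyocytes, and all 12 received tamoxifen (33 mg/kg per day for 5 days) at 10 to 13 weeks of age. Hearts were taken 5 days after the last injection, and RNA of the tissue with all of its cell types was sequenced, so Cyb5r3 of nonmyocytes was left in place and no heart without Cre or without tamoxifen was available as a reference.

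Ephrins are ligands anchored in the membrane of one cell, and Eph receptors are receptor tyrosine kinases on the cell it touches. Ephrin-A proteins hang from a lipid anchor and mostly bind EphA receptors, whereas ephrin-B proteins span the membrane and mostly bind EphB receptors and EphA4. Signaling runs forward into the cell with the receptor and in reverse into the cell with the ephrin-B, whose tail is phosphorylated on tyrosines and ends in a motif that binds PDZ domains. In the heart and its vessels the best known pair is ephrin-B2 of arterial and EphB4 of venous endothelium, while ephrin-B3 is best known from axon guidance, where it meets EphA4 and EphB receptors at the midline.

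The 3 ephrin-B genes encode near-identical tails, and the last coding bases before the stop codon are shown because they bear on whether reads of the 3 ligands can be kept apart. They were read from GENCODE transcripts of the NCBIM37 mouse assembly, 5′ to 3′ on the transcript strand, with capitals at positions that have the same base in all 3 genes.
Efnb1 (coding bases 937 to 1035): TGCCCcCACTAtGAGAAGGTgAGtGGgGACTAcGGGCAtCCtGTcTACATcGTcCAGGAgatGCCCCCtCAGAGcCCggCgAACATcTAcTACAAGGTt
Efnb2 (coding bases 910 to 1008): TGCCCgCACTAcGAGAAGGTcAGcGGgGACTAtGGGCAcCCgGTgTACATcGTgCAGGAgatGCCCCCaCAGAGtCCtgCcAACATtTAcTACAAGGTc
Efnb3 (coding bases 922 to 1020): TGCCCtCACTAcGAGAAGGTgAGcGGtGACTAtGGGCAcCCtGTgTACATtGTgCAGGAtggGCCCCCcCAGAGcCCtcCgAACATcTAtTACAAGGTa
Of these 99 positions, 77 (77.8%) were identical in Efnb1, Efnb2 and Efnb3. Efnb3 shared 82.8% of them with Efnb1 and 84.8% with Efnb2, and Efnb1 shared 84.8% with Efnb2. Over the whole transcripts the longest run of bases that Efnb3 had in common with either ligand was 22 bases, with Efnb1. None of the 3109 stretches of 75 bases in the Efnb3 transcript, which is the length of the sequenced reads, occurred without mismatch in an annotated protein-coding transcript of another gene, and the same was found for each of the other 9 genes. Reads without mismatch from the Efnb3 transcript could thus be told apart from those of Efnb1 and Efnb2. The Efnb3 gene (ENSMUSG00000003934) lies on the minus strand of chromosome 11 (chr11:69367594-69373707, NCBIM37) and has 5 exons and 1 annotated protein-coding transcript.

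Total counts were between 43393183 and 53754284 per library. Levels are given as CPM, the reads of a gene as a share of all counted reads of the library, scaled to parts per 1000000. Library sizes were adjusted with the trimmed mean of M-values (TMM), since a handful of abundant RNAs can use up much of a library. The TMM factors of ac-WT mice 2 and 3 were 0.570 and 0.723, whereas those of the other 10 libraries were between 0.988 and 1.22. These 2 hearts thus stood apart, and for many but not all genes values without them are given as well. Cyb5r3, the targeted gene, fell from 81.9 to 185 CPM in the ac-WT hearts to 42.0 to 67.4 CPM in the ac-CYB5R3-KO hearts (log2 fold change -1.22, SE 0.19, adjusted p = 0.0450 in edgeR's quasi-likelihood test), with no overlap of the groups. This adjusted p was 0.315 under scaling to total counts alone and 0.0561 in limma-voom, and between 0.0650 and 0.136 when ac-WT mouse 3 or 5 or any of ac-CYB5R3-KO mice 1 to 5 was left out. The adjusted p was lower in DESeq2 (1.39e-06), and in edgeR with no filter (0.0154) and without ac-WT mice 2 and 3 (0.00417). The log2 fold change of Cyb5r3 without that pair was -1.41. The cardiomyocyte markers were present in every heart. Of the atrial markers, Sln and Bmp10 were under 0.3 CPM in every mouse, although the tissue was labelled as whole heart. The other atrial markers had reads in every heart. In ac-WT hearts Nppa was at 405 to 956 CPM, Dkk3 at 3.70 to 27.5 CPM, Myl4 at 5.11 to 9.75 CPM and Myl7 at 0.581 to 2.00 CPM.

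Efnb3 had the lowest levels relative to controls of any of the 10 genes. In ac-WT mice 1 to 6 its level was 12.4, 25.6, 19.0, 6.10, 9.09 and 6.56 CPM, from 294 to 733 reads per heart. In ac-CYB5R3-KO mice 1 to 6 it was 1.46, 5.02, 1.69, 1.59, 2.67 and 2.73 CPM, from 73 to 292 reads. Each knockout heart thus lay below each control heart, and the nearest values of the groups were 5.02 CPM in ac-CYB5R3-KO mouse 2 and 6.10 CPM in ac-WT mouse 4. The 6 controls averaged 13.1 ± 7.74 CPM (SD) and the 6 knockouts 2.53 ± 1.34 CPM (SD), which is 19.2% of the control mean. The log2 fold change was -2.37 (SE 0.41), which ranked 11 of 17847 genes tested by the size of the fall. Within the genotypes Efnb3 also varied widely, with the highest control 4.20 times the lowest and the highest knockout 3.45 times the lowest. The highest controls were ac-WT mice 2 and 3, the hearts with low TMM factors, and the log2 fold change without this pair was -1.74 (SE 0.34). With the scaling of all 12 libraries kept, the remaining 4 controls were between 6.10 and 12.4 CPM. Leaving out the 2 highest controls could not make the groups overlap, so nothing is read from their separation there. In tissue RNA, fewer cells of a type and less RNA per cell cannot be told apart.

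**Figure D1:**
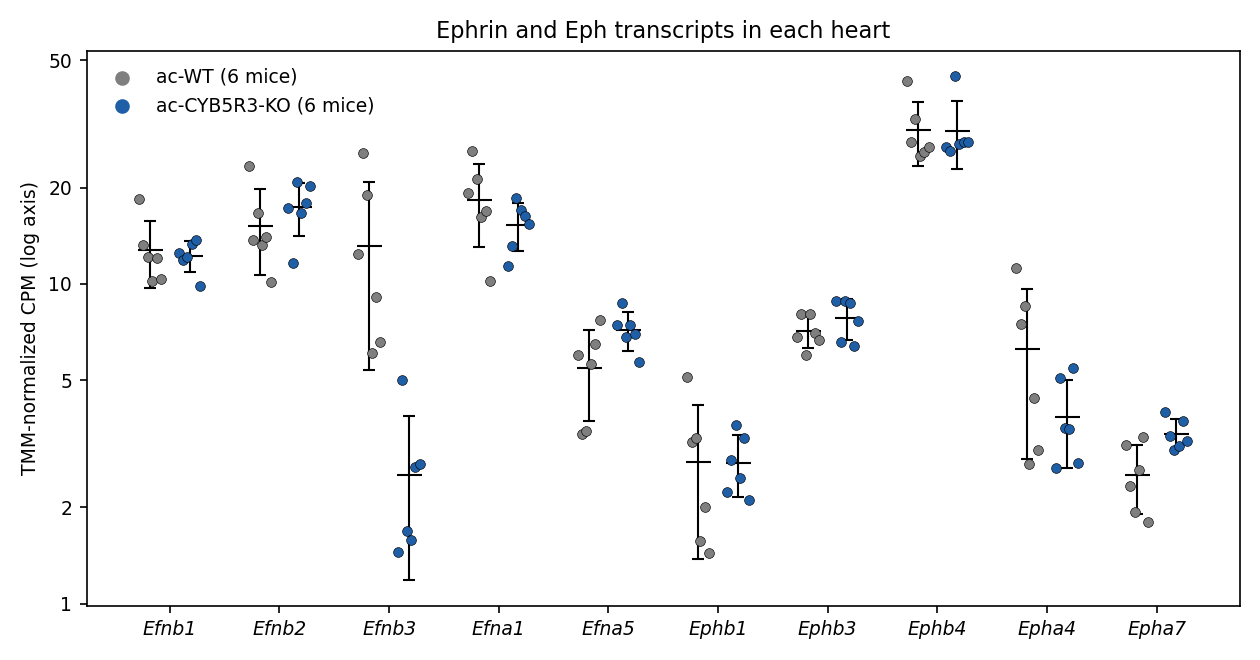
TMM-normalized CPM (log axis) of the 10 ephrin and Eph genes in each of 6 ac-WT hearts (grey) and 6 ac-CYB5R3-KO hearts (blue), with 1 point per mouse and bars for the mean ± SD. The groups are separate for Efnb3, at 6.10 to 25.6 CPM against 1.46 to 5.02 CPM, and overlap for each of the other 9 genes.

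The 2 other ephrin-B ligands overlapped between the genotypes. Efnb1, whose human counterpart is mutated in craniofrontonasal syndrome, was at 18.4, 13.3, 12.2, 10.2, 12.03 and 10.4 CPM in ac-WT mice 1 to 6. In ac-CYB5R3-KO hearts Efnb1 lay between 9.87 and 13.7 CPM with a median of 12.3 CPM. Apart from ac-WT mouse 1, the Efnb1 values of both groups covered nearly the same span, and its log2 fold change was -0.06 (SE 0.14), with a positive sign under scaling to total counts alone and without ac-WT mouse 1. Efnb2, the arterial ligand, was at 10.1 to 23.4 CPM (median 13.9) in ac-WT and at 11.6 to 20.9 CPM (median 17.6) in ac-CYB5R3-KO hearts. The Efnb2 knockouts lay within the span of the controls, with a log2 fold change of 0.20 (SE 0.19).

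To compare the 3 ephrin-B ligands with each other, levels were divided by the length of the longest transcript. Efnb3 made up 26.1%, 52.6%, 44.0%, 23.6%, 29.2% and 27.2% of the summed ephrin-B level per kb in ac-WT mice 1 to 6. In ac-CYB5R3-KO mice 1 to 6 its share was 5.51%, 19.98%, 5.85%, 5.90%, 9.14% and 10.0%. Efnb3 was thus the leading ephrin-B of ac-WT mice 2 and 3 and of no knockout heart, and its mean share was 33.8% ± 11.7 (SD, n = 6) in controls and 9.40% ± 5.52 (SD, n = 6) in knockouts. Efnb2 took a mean of 31.2% of the ephrin-B level in controls and 46.7% in knockouts, and Efnb1 35.0% and 43.9%. The summed ephrin-B level was 7.59 to 15.3 CPM per kb (median 11.7) in ac-WT and 7.90 to 9.17 CPM per kb (median 8.51) in ac-CYB5R3-KO hearts, so the sums of the genotypes overlapped. These shares use the same Efnb3 counts that chose the family.

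**Figure D2:**
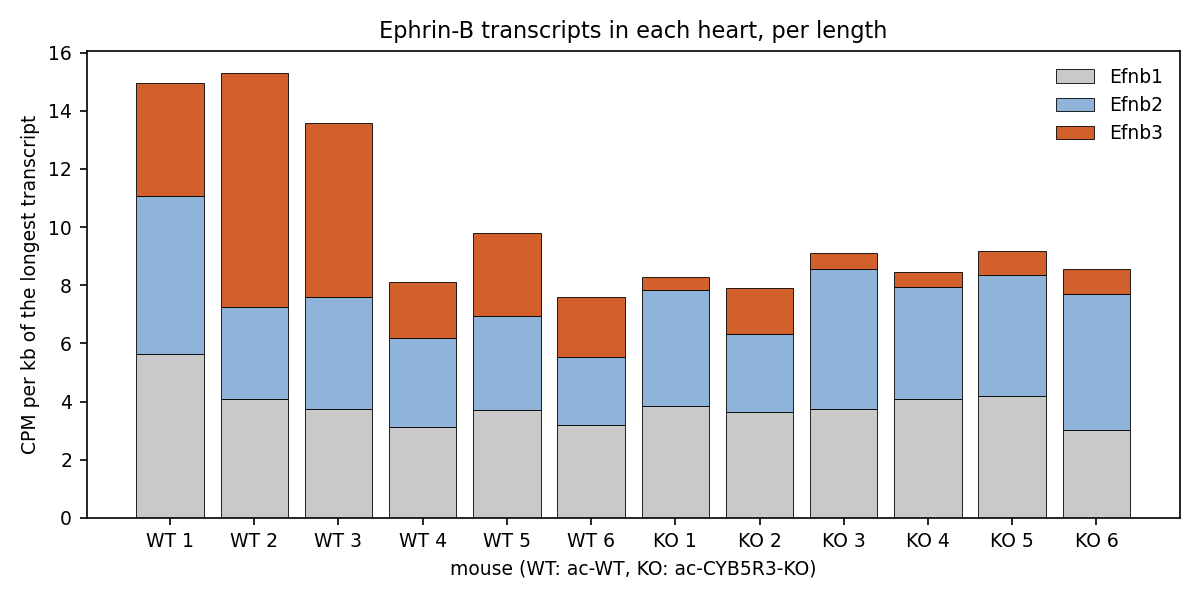
Efnb1, Efnb2 and Efnb3 in CPM per kb of the longest transcript, stacked for each of the 12 hearts. The Efnb3 part takes 23.6% to 52.6% of the stack in ac-WT hearts and 5.51% to 19.98% in ac-CYB5R3-KO hearts, while the heights of the Efnb1 and Efnb2 parts overlap between the genotypes.

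The ephrin-A ligands differed little and in opposite directions. Efna1, a ligand of EphA2 made by endothelium, was at 19.3, 26.1, 21.3, 16.2, 16.9 and 10.2 CPM in ac-WT mice 1 to 6 and at 11.4 to 18.6 CPM (median 15.8) in ac-CYB5R3-KO hearts. Its highest values were in ac-WT mice 2 and 3, where Efnb3 was highest as well, and its log2 fold change was -0.26 (SE 0.19), which became 0.09 under scaling to total counts alone and -0.02 without those 2 mice. Efna5, a ligand that repels growing axons, was at 3.39 to 7.72 CPM (median 5.80) in ac-WT and at 5.70 to 8.74 CPM (median 7.18) in ac-CYB5R3-KO hearts. The lowest Efna5 values, 3.39 and 3.47 CPM, were again those of ac-WT mice 2 and 3, here in the opposite direction to Efnb3. Its log2 fold change of 0.39 (SE 0.19) was 0.17 without them.

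The EphB receptors overlapped between the genotypes throughout. Ephb4, the receptor of ephrin-B2 on venous endothelium, was at 25.1 to 43.1 CPM (median 27.3) in ac-WT and at 26.0 to 44.7 CPM (median 27.6) in ac-CYB5R3-KO hearts, with the top values in ac-WT mouse 1 and ac-CYB5R3-KO mouse 3. Ephb3 was the steadiest of the 10 genes in the controls, at 5.99 to 8.07 CPM in ac-WT and 6.39 to 8.85 CPM in ac-CYB5R3-KO hearts. Ephb1, a receptor that ephrin-B3 can bind, was at 1.44 to 5.11 CPM (median 2.61) in ac-WT and at 2.12 to 3.62 CPM (median 2.65) in ac-CYB5R3-KO hearts. For all 3 the knockout medians lay inside the span of the controls or just above it. The log2 fold changes were -0.01 (SE 0.17) for Ephb4, 0.14 (SE 0.12) for Ephb3 and -0.005 (SE 0.29) for Ephb1, and those of Ephb4 and Ephb1 changed sign in 10 and 11 of 19 other settings, total counts alone among them.

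The EphA receptors pointed in opposite directions. Epha4, a receptor that binds both ephrin classes and is a partner of ephrin-B3 in axon guidance, was at 11.2, 7.51, 8.55, 2.74, 4.4 and 3.03 CPM in ac-WT mice 1 to 6. In ac-CYB5R3-KO mice 1 to 6 it was at 2.65, 5.09, 3.55, 3.51, 5.45 and 2.75 CPM. Epha4 was thus high in ac-WT mice 1 to 3, while ac-WT mice 4 to 6 lay within the values of the knockouts. Its log2 fold change was -0.70 (SE 0.34), the next lowest of the 10 genes after Efnb3, and it was -0.47 without ac-WT mice 2 and 3 and -0.35 under scaling to total counts alone. Epha7, a receptor of ephrin-A ligands, was at 1.80 to 3.32 CPM (median 2.48) in ac-WT and at 3.03 to 3.97 CPM (median 3.29) in ac-CYB5R3-KO hearts. The groups overlapped between 3.03 and 3.32 CPM, and the log2 fold change was 0.43 (SE 0.16).

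Over the 10 genes, 6 had a negative and 4 a positive log2 fold change, with a median of -0.01 beside a median of -0.01 over all genes tested. Efnb3 was the 1 gene of the 10 at an adjusted p under 0.05 in edgeR, where 0.101% of all 17847 genes tested were, and nothing is read from this count because Efnb3 chose the family. The count was 0 of 10 in limma-voom, and it was 0 when any 1 mouse was left out other than ac-WT mouse 4 or 6. At an unadjusted p under 0.05, 1 gene was lower (Efnb3) and 1 higher (Epha7), beside 9.73% of all genes tested that were lower and 4.91% that were higher, and without ac-WT mice 2 and 3 the higher count was 0. The groups did not overlap for 1 of the 10 genes, Efnb3, and for 1.55% of all genes tested. Under scaling to total counts alone the median of all genes moved to 0.26 and 8 of the 10 genes were positive, with a median of 0.30. Relative to that shift Efnb1, Efnb3, Efna1 and Epha4 were below the median of all genes and the other 6 above it.

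**Figure D3:**
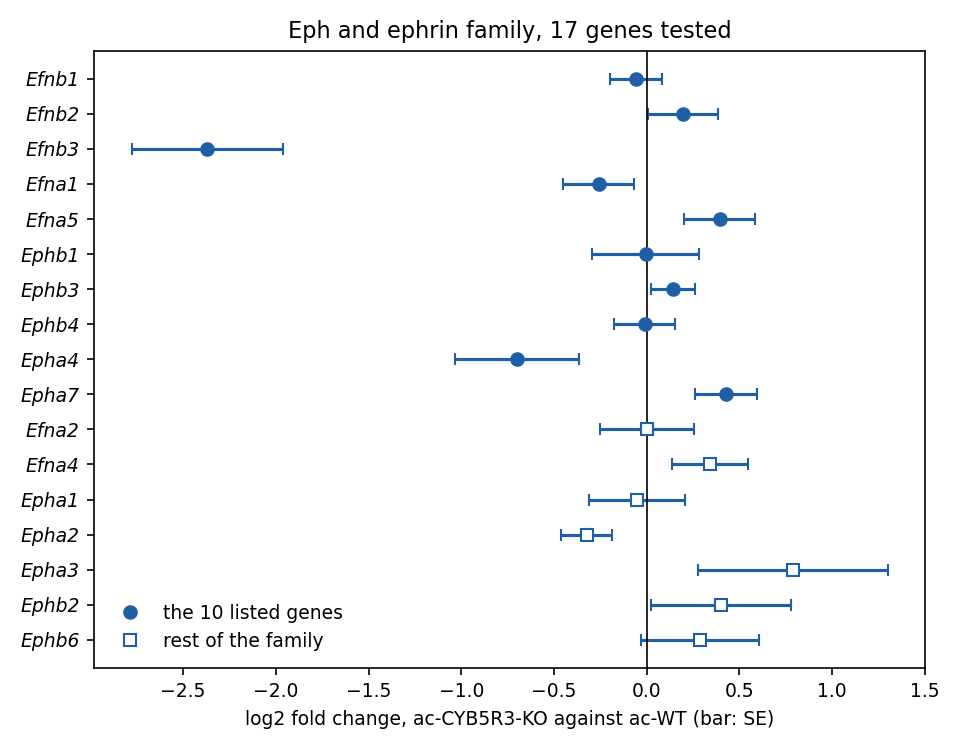
Log2 fold change of ac-CYB5R3-KO against ac-WT hearts with its SE for the 10 listed genes (filled circles) and the 7 tested genes of the rest of the family (open squares), from edgeR with 6 mice per group. Efnb3 is at -2.37, and the other 16 genes are between -0.70 and 0.79; the signs of Efnb1, Efna1, Ephb1, Ephb4 and Epha1 flip under scaling to total counts alone.

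The order of the 10 genes by level per kb of the longest transcript, a comparison within each library, was led by Efna1 at 11.2 ± 3.27 CPM per kb in ac-WT and 9.37 ± 1.62 CPM per kb in ac-CYB5R3-KO hearts (SD, n = 6 each). Ephb4 followed at 6.97 ± 1.58 and 6.92 ± 1.66 CPM per kb. Efna1 was above Ephb4, and Ephb4 above Efnb1, in 12 of 12 hearts (adjusted p = 0.00171 for either pair, two-sided exact sign-flip permutation test over mice, 7 neighbouring pairs). Efnb1 at 3.91 ± 0.923 and 3.76 ± 0.417 CPM per kb was not told apart from Efnb2 at 3.52 ± 1.05 and 4.03 ± 0.765 CPM per kb (Efnb1 higher in 8 of 12 hearts, mean log2 ratio 0.04 ± 0.31 SD, adjusted p = 0.723 by the same permutation test). Efnb3 stood at rank 3 in ac-WT hearts with 4.13 ± 2.43 CPM per kb, or at rank 5 with the mean transcript length, and at rank 7 in ac-CYB5R3-KO hearts with 0.793 ± 0.422 CPM per kb. Efnb3 was not tested against its neighbours in the order.

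In the lower part of the order, Ephb3 (1.496 ± 0.171 and 1.65 ± 0.240 CPM per kb) was not told apart from Efna5 (1.35 ± 0.425 and 1.78 ± 0.246 CPM per kb), with Ephb3 higher in 6 of 12 hearts and a mean log2 ratio of 0.05 ± 0.45 SD (adjusted p = 0.723, permutation test). Efna5 was above Epha4 (0.987 ± 0.537 and 0.606 ± 0.186 CPM per kb) in 9 of 12 hearts (adjusted p = 0.0125, permutation test), and the exceptions were ac-WT mice 1 to 3. Epha4 was above Ephb1 (0.595 ± 0.299 and 0.591 ± 0.129 CPM per kb) in 9 of 12 (adjusted p = 0.0393, permutation test), and the exceptions were all ac-CYB5R3-KO hearts. Both orders thus pool genotypes that differed in them. Ephb1 and Epha7, the scarcest of the 10 transcripts, were not told apart at this threshold (Ephb1 higher in 8 of 12 hearts, mean log2 ratio 0.38 ± 0.57 SD, adjusted p = 0.0622, permutation test). Ranks depended on the length used, with 6 of the 10 genes at another rank with the mean transcript length and 2 with the union of exons.

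The remaining 12 genes of the family were mostly scarce in these hearts. Efna3, Epha5, Epha6, Epha8 and Epha10 were at no more than 0.137 CPM in any mouse and did not pass the count filter. Of the 7 tested, 0 were called at an adjusted p under 0.05 in edgeR, in DESeq2 or in limma-voom, and at an unadjusted p under 0.05 in edgeR 1 was lower and 0 were higher. Beside the 9.73% of all genes that were lower, 1 of 7 is not read as a result about these genes. Epha2, the main receptor of ephrin-A1, was at 7.36 to 12.6 CPM in ac-WT and 6.84 to 9.02 CPM in ac-CYB5R3-KO hearts (log2 fold change -0.32, SE 0.14, adjusted p = 0.302 in edgeR). The Epha2 values overlapped, and its log2 fold change was -0.02 under scaling to total counts alone. The other 6 had log2 fold changes of 0.00 (Efna2), 0.34 (Efna4), -0.05 (Epha1, positive under scaling to total counts alone), 0.79 (Epha3), 0.40 (Ephb2) and 0.29 (Ephb6, which lacks kinase activity), and the median of the 7 was 0.29. Without ac-WT mice 2 and 3 they were -0.13 (Efna2), 0.17 (Efna4), -0.21 (Epha1), 0.35 (Epha3), 0.0022 (Ephb2) and -0.07 (Ephb6). Epha2 was then at -0.19, so the positive median depended on that pair of hearts.

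Signaling partners of the family were described from a list of 59 genes, of which 58 were tested and Grb7 was not. In edgeR 0 were called at an adjusted p under 0.05, with 2 lower and 6 higher at an unadjusted p under 0.05, or 3.45% and 10.3% of the list beside 9.73% and 4.91% of all genes tested. Limma-voom called 0 and DESeq2 called 2 at an adjusted p under 0.05, where DESeq2 called 2.45% of all genes. The 16 partners of reverse signaling, which meet the tail of the ephrin-B proteins, held 1 of the lower and 2 of the higher genes, the 31 tested partners of forward signaling 1 and 3, and the 11 proteases and phosphatases 0 and 1. The 58 genes had a median of 0.08 on the log2 scale.

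Grip1 and Grip2 encode scaffold proteins whose PDZ domains bind the end of the ephrin-B tail, the stretch encoded by the last bases printed above. Grip2 was at 16.5, 23.2, 71.3, 11.7, 3.34 and 3.75 CPM in ac-WT mice 1 to 6 and at 2.92 to 7.33 CPM in ac-CYB5R3-KO hearts. Ac-WT mouse 3 stood far above the rest and ac-WT mice 5 and 6 lay within the knockouts, so that the log2 fold change of Grip2, -2.001 (SE 0.62, adjusted p = 0.200 in edgeR), was -0.70 without ac-WT mice 2 and 3. Grip1 was at 0.0278 to 0.209 CPM in ac-WT and at 0.169 to 0.491 CPM in ac-CYB5R3-KO hearts, from 1 to 11 and from 9 to 29 reads. These Grip1 levels are low and overlap, and the log2 fold change of 1.57 (SE 0.41) had an adjusted p of 0.173 in edgeR and 0.0284 in DESeq2.

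Src, a kinase that phosphorylates the ephrin-B tail, was at 3.50 to 5.80 CPM in ac-WT and at 5.80 to 6.78 CPM in ac-CYB5R3-KO hearts (log2 fold change 0.42, SE 0.12, adjusted p = 0.188 in edgeR and 0.0415 in DESeq2). The groups met at 5.80 CPM. Rock2, a kinase that acts downstream of RhoA, and Kalrn, a guanine nucleotide exchange factor, had log2 fold changes of 0.35 (SE 0.11, adjusted p = 0.201) and 0.35 (SE 0.13, adjusted p = 0.250) in edgeR. On the lower side, Anks1, an adaptor of Eph receptors, was at 60.3 and 61.7 CPM in ac-WT mice 2 and 3, at 21.8 to 33.1 CPM in the other controls and at 17.6 to 27.0 CPM in knockouts. Its log2 fold change of -0.84 (SE 0.27, adjusted p = 0.206 in edgeR) was -0.28 without that pair of hearts. The log2 fold changes of Cldn5, an endothelial tight junction protein, and Ptpn13, a phosphatase with PDZ domains, were -0.67 (SE 0.37, adjusted p = 0.419) and -0.40 (SE 0.23, adjusted p = 0.443) in edgeR. Without ac-WT mice 2 and 3 they were -0.32 and -0.14.

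**Figure D4:**
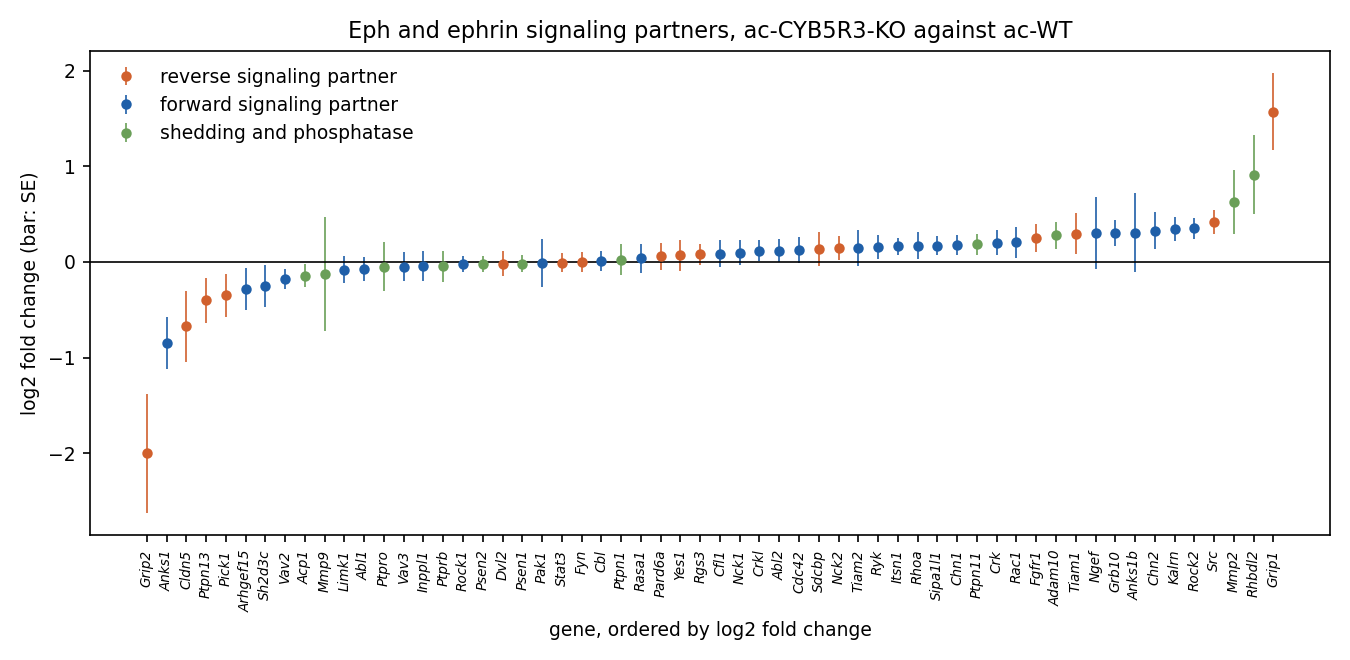
Log2 fold change with its SE for the 58 tested signaling partners, ordered by size and colored by role, from edgeR with 6 mice per group. Grip2 at -2.001 and Grip1 at 1.57 are at the ends, and the others lie between -0.84 and 0.91; none passed an adjusted p of 0.05 in edgeR, whereas Grip1 and Src passed it in DESeq2.

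Genes next to Efnb3 were read from the NCBIM37 annotation. Dnahc2, a dynein heavy chain on the same strand 4981 bases away, was at 0.377, 0.454, 0.860, 0.332, 0.327 and 0.360 CPM in ac-WT mice 1 to 6, from 13 to 31 reads. In ac-CYB5R3-KO hearts it was at 0.120 to 0.305 CPM, from 6 to 18 reads. The groups did not overlap, although the lowest control and the highest knockout were only 0.327 and 0.305 CPM, and the log2 fold change was -0.88 (SE 0.33, adjusted p = 0.248 in edgeR), or -0.52 without ac-WT mice 2 and 3. Wrap53, which encodes a telomerase component, lies 1552 bases away on the other side. The log2 fold changes of Wrap53 and of the histone demethylase gene Kdm6b were -0.30 (SE 0.13, adjusted p = 0.322) and -0.45 (SE 0.18, adjusted p = 0.274) in edgeR, and -0.13 and -0.19 without ac-WT mice 2 and 3. The log2 fold changes of Trp53 (0.08, SE 0.14), Atp1b2 (-0.0015, SE 0.17) and 6030455H03Rik (-0.06, SE 0.41) were within their SE, those of the latter 2 with a positive sign without ac-WT mice 2 and 3, and none of the 6 neighbours reached an adjusted p of 0.05 in edgeR.

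The genes most like Efnb3 were sought over 12 mice by the correlation of log2(CPM + 1) as deviations from the mean of each genotype, so that the difference between genotypes did not enter. The 5 highest of all genes tested were Rbfox1 (r = 0.97, rho = 0.90), a splicing regulator of heart muscle and neurons, Adhfe1 (r = 0.97, rho = 0.94), a mitochondrial dehydrogenase, Shmt2 (r = 0.96, rho = 0.96), a mitochondrial enzyme of serine metabolism, Slc20a2 (r = 0.95, rho = 0.90), a phosphate transporter, and Sgca (r = 0.95, rho = 0.89), a sarcoglycan of the muscle membrane. Without ac-WT mouse 2 and ac-CYB5R3-KO mouse 2, the extremes of Efnb3, r was between 0.89 and 0.95 for these 5. The points share libraries and their scaling factors, and the 5 were picked as the highest values, so the correlations are a description. In each of the 5 the highest control was ac-WT mouse 2 and the highest knockout ac-CYB5R3-KO mouse 2, as in Efnb3.

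Between genotypes these 5 genes had log2 fold changes closer to 0 than that of Efnb3. Adhfe1 was at 6.43 to 25.0 CPM in ac-WT and 3.95 to 8.01 CPM in ac-CYB5R3-KO hearts (log2 fold change -1.27, SE 0.32, adjusted p = 0.173 in edgeR), and Rbfox1 at 2.10 to 6.99 and 1.32 to 3.18 CPM (-1.01, SE 0.30, adjusted p = 0.191). Both overlapped between the groups. Sgca (-0.62, SE 0.23, adjusted p = 0.249), Slc20a2 (-0.30, SE 0.19, adjusted p = 0.468) and Shmt2 (0.08, SE 0.09, adjusted p = 0.675) were closer to 0. Without ac-WT mice 2 and 3 the log2 fold changes were -0.70 for Adhfe1, -0.51 for Rbfox1, -0.20 for Sgca, -0.01 for Slc20a2 and 0.17 for Shmt2. Among the other 9 ephrin and Eph genes, the deviations of Epha4 were most like those of Efnb3 (r = 0.74, rho = 0.71), those of Efna1 (r = 0.58, rho = 0.48) and Ephb1 (r = 0.56, rho = 0.52) came next, and those of Efna5 ran the other way (r = -0.60, rho = -0.47).

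Marker genes of the cell types in heart tissue were summed to see which moved with the genotypes. The sum of 10 Schwann cell and neuron markers was at 6.24 to 8.81 CPM (median 7.43) in ac-CYB5R3-KO and at 7.72 to 17.2 CPM (median 11.98) in ac-WT hearts (log2 difference -0.71, adjusted p = 0.0357, two-sided exact permutation test over 11 lists), and without ac-WT mice 2 and 3 the log2 difference was -0.49 (adjusted p = 0.105, exact permutation test). Of the 7 tested genes of this list 4 were lower at an unadjusted p under 0.05, beside 9.73% of all genes, and 0 at an adjusted p under 0.05 in edgeR. Dbh, the enzyme that makes noradrenaline, had a log2 fold change of -1.94 and S100b of 0.33, while Th and Snap25 were under 0.3 CPM in every mouse. The sum of 10 cardiomyocyte markers was at 14011 to 23299 CPM in ac-CYB5R3-KO and 19485 to 47933 CPM in ac-WT hearts (log2 difference -0.55, adjusted p = 0.0774, exact permutation test), with 4 of the 10 lower at an unadjusted p under 0.05, and its log2 difference was -0.22 without ac-WT mice 2 and 3.

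The red blood cell sum was at 1323 to 12226 CPM in ac-CYB5R3-KO and 222 to 4486 CPM in ac-WT hearts (log2 difference 1.78, adjusted p = 0.0952, exact permutation test), with 3 of 4 tested genes higher at an unadjusted p under 0.05 beside 4.91% of all genes. Its log2 difference was 2.37 without ac-WT mice 2 and 3 (adjusted p = 0.105, exact permutation test). The sum of the cartilage and airway list was higher by 2.74 on the log2 scale (adjusted p = 0.0238, exact permutation test), or by 1.78 without ac-WT mice 2 and 3 (adjusted p = 0.0524, exact permutation test). This sum was carried by Comp, at 37.0 to 95.8 CPM, and Col11a1, at 21.1 to 36.5 CPM in ac-CYB5R3-KO hearts, while Col2a1 and Acan stayed under 1 CPM and Matn1 and Scgb1a1 under 0.3 CPM in every mouse. The mural cell sum had a log2 difference of -0.23 (adjusted p = 0.0774), and the other 6 lists, of endothelial and arterial, venous and lymphatic endothelial cells, atrial cardiomyocytes, fibroblasts and macrophages, had adjusted p between 0.439 and 0.994 in the exact permutation test.

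The Efnb3 level was also divided by these sums in each heart. The log2 difference of Efnb3 over the cardiomyocyte sum was -1.77, over the endothelial sum -2.32 and over the fibroblast sum -2.69, and in each case the genotypes did not overlap. Without ac-WT mice 2 and 3 these were -1.62, -1.90 and -1.65. Over the Schwann cell and neuron sum it was -1.61, over the mural sum -2.08 and over the macrophage sum -2.38, and there the ranges of the genotypes overlapped. Without the same pair of hearts these were -1.35, -1.66 and -1.47. All of these ratios use the same Efnb3 counts that chose the family, so their differences between the genotypes are descriptions. The part that the markers of other cell types have in the Efnb3 values was not tested.

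**Figure D5:**
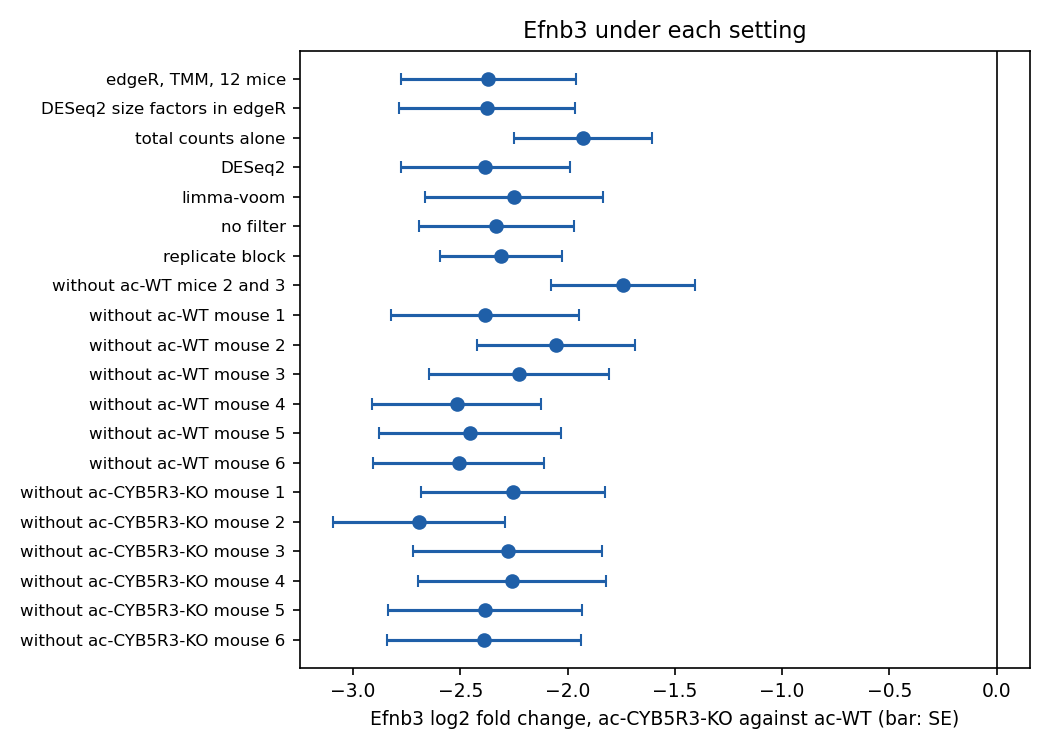
Log2 fold change of Efnb3, ac-CYB5R3-KO against ac-WT, with its SE for 20 ways of fitting the counts, with 1 row per setting and a vertical line at 0. Each estimate is negative, from -2.69 without ac-CYB5R3-KO mouse 2 to -1.74 without ac-WT mice 2 and 3.

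The Efnb3 estimate was -1.93 (SE 0.32) under scaling to total counts alone, -2.38 (SE 0.39) in DESeq2 and -2.25 (SE 0.41) in limma-voom. Leaving out any 1 of the 12 mice gave between -2.69 and -2.06. Its sign did not turn in any of the 19 other settings, nor did those of Efnb2, Efna5, Ephb3, Epha4 and Epha7.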

How the data were processed

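RNA from 12 mouse hearts, 6 per genotype, was sequenced as stranded total RNA with unpaired 75-base reads. The authors deposited raw read counts for 53700 Ensembl genes, without normalization or filter. The paper's methods name trimming with fastq-mcf and Trimmomatic and mapping with STAR to mm9, whereas the submitters' processing notes list GRCm39, STAR and featureCounts; the strand setting of the counting is not given in the sources used here. Symbols matched 31027 identifiers (57.8%), and 0 columns were left unassigned. No sample was dropped. Nothing in the labels ties a replicate number to a litter or day.

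Counts of 17847 genes that passed filterByExpr (minimum count 10) were fitted with edgeR 4.0.16 (TMM, quasi-likelihood, two-sided, Benjamini-Hochberg over all genes tested, threshold 0.05) in R 4.3.3, after a test on simulated counts. DESeq2 1.42.0, limma-voom (limma 3.58.1), other scalings, no filter, a replicate block and leaving out mice were alternatives. Marker sums, neighbours and genes like Efnb3 were recomputed without ac-WT mice 2 and 3 after seeing the data. SE of edgeR values derive from the F statistic. Level orders and marker sums used permutation tests (scipy 1.17.1), the latter exact over 924 splits (smallest p 0.00216). Lengths and positions came from GENCODE for NCBIM37. Named beside the 10 genes were the rest of the family, the 4 partners with the smallest p in each direction, 3 neighbours on each side, the 5 genes most like Efnb3 and Cyb5r3. The 10 genes and the lists were chosen with earlier results of these data known.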

Additional observations from a re-analysis of the deposited data

Results flagged for a closer look

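Of 74 groups of 6 mice examined for a single mouse far from the other 5, 6 held one, and chance gives about 1 in 20 groups. Among the 10 ephrin and Eph genes, Ephb4 in ac-CYB5R3-KO mouse 3 was at 44.7 CPM, above the next highest knockout at 27.7 CPM. Efnb1 in ac-WT mouse 1 was at 18.4 CPM, above the next highest control at 13.3 CPM. Efnb3 in ac-CYB5R3-KO mouse 2 was at 5.02 CPM, above the next highest knockout at 2.73 CPM. Among the other genes, Epha1 in ac-CYB5R3-KO mouse 6 was at 0.224 CPM, below the next lowest knockout at 0.524 CPM. Grip2 in ac-WT mouse 3 was at 71.3 CPM, above the next highest control at 23.2 CPM, and Dnahc2 in the same mouse was at 0.860 CPM, above 0.454 CPM.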

How the results depend on the processing

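The Efnb3 log2 fold change kept its sign in each setting (-2.69 to -2.06 leaving out 1 mouse). Ranges in parentheses are for leaving out 1 mouse. The count of the 10 genes at an adjusted p under 0.05, 1 (Efnb3), was 0 with DESeq2 size factors in edgeR, in limma-voom, with the replicate block and without ac-WT mice 2 and 3, and 0 to 1 leaving out 1 mouse. At an unadjusted p, their lower count of 1 was 2 in DESeq2 and with no filter (1 to 3 leaving out 1 mouse), and their higher count of 1 was 2 in limma-voom and with no filter and 0 without ac-WT mice 2 and 3 (0 to 2). The rest of the family had 1 lower gene, 0 under total counts alone, in limma-voom and without ac-WT mice 2 and 3 and 2 with no filter (0 to 1), and 0 higher (0 to 1). Of the partners, 0 passed an adjusted p under 0.05 (0 to 0) and 2 in DESeq2, while the lower count of 2 was 1 in limma-voom, with the block and without ac-WT mice 2 and 3 (2 to 4), and the higher count of 6 was 4 with the block and 9 under total counts alone (4 to 8 leaving out 1 mouse). Ranks by length changed for 6 genes with the mean transcript length and for 2 with the union of exons. Deviations of same-numbered mice correlated at -0.16 to 0.36 over 6 pairs (mean 0.13, against -0.03 over the other 30), and 6 of 12 mice correlated best with their own number. Not every pair was positive and the labels name no pairing, so mice were treated as unpaired in the main fit. Whether a replicate number marks a shared batch was not tested. With the block Efnb3 was at -2.31 and the adjusted p of Cyb5r3 at 0.100 (edgeR). With the scaling kept, marker sums without ac-WT mice 2 and 3, chosen after seeing the data, gave log2 differences of -0.49 (Schwann cell and neuron) and 1.78 (cartilage and airway), no longer past an adjusted p of 0.05, and turned to 0.055 (endothelial), -0.19 (fibroblast) and -0.37 (macrophage); 6030455H03Rik and Atp1b2 turned to 0.28 and 0.045. The causes of these changes were not tested. Genes with at most 31 reads per library, such as Grip1 and Dnahc2, are limited by depth.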
